A study of Homo sapiens with 13 samples.

Results

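The library labelled LV-SKA2 was compared with its vector control, LV-vector-PS, gene by gene. Both came from A549, an established human lung adenocarcinoma line, made into stable lines with a lentiviral pCDH-CMV construct. LV-SKA2 was labelled as overexpressing SKA2, and LV-vector-PS carried the control vector. A second pair, LV-P+S (PRR11 and SKA2 together) against LV-PRR11 (PRR11 alone), also differed by the SKA2 construct and shared no library with the first. The 4 libraries formed 1 set among 13 libraries in the series, with 1 library per group and no replicate. Further A549 libraries served for context: CRISPRi cells with a guide to the PRR11 and SKA2 promoter and their mock guide control, and 2 more controls, LV-vector-34 of the microRNA constructs and CRISPRd control of the microRNA knockouts. The labels do not say whether a stable line was 1 clone or a pool of cells.

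Of 17978 genes in the table, 13470 were measured, with 20 or more reads over both libraries and 1 CPM (counts scaled to library size) or more in either. The libraries were close in depth, at 18672570 counts in LV-SKA2 and 18858324 counts in LV-vector-PS. A gene was called when its log2 ratio of CPM + 0.5 was at least 1 in size and the exact 95% counting interval of the ratio excluded equality. These intervals cover counting error only. In both libraries 12 of 12 A549 identity markers were measured, among them the keratins KRT8 and KRT18 and the aldo-keto reductase AKR1B10.

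SKA2 works with SKA1 and SKA3 in the SKA complex of the outer kinetochore. The complex binds microtubules together with the NDC80 complex and holds kinetochores on spindle fibres through metaphase. SKA2 and PRR11, a proline-rich protein linked to cell cycle progression and lung cancer growth, are transcribed from a shared bidirectional promoter, and the miR-301a and miR-454 genes lie within SKA2. The construct label therefore names a mitotic gene whose chromosomal copy is active in these cells.

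SKA2 (chromosome 17, 59109951 to 59155269, minus strand, GRCh38) had the following 167 bases upstream of the annotated gene, from RefSeq on GRCh38.p14 at chr17:59155270-59155436. They are shown because the chromosomal copy of SKA2 is read from here, and capitals mark CCAAT, searched on both strands (CCAAT or ATTGG).
SKA2: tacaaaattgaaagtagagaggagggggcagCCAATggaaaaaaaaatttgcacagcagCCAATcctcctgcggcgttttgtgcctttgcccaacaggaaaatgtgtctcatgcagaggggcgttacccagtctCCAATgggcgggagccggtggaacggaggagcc
The motif occurred 3 times in these bases. Among 35116 RefSeq promoters, 32.0% held it at least once in the 250 bases upstream of the start and 2.93% held it 3 or more times. A match is a description of the letters and not a binding site.

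The SKA2 count in the library labelled LV-SKA2 lay below that of its vector. It was 1130 counts in LV-SKA2 and 1349 counts in LV-vector-PS, or 60.4 CPM and 71.6 CPM. LV-SKA2 thus held 84.4% of the vector level (95% counting interval, 77.9% to 91.4%). In the second pair SKA2 had 1206 counts in LV-P+S and 1326 counts in LV-PRR11, which was 89.7% (82.9% to 97.0%). Both libraries labelled with SKA2 were therefore below both libraries without that label. The 4 control libraries of the series had 71.6 CPM (LV-vector-PS), 77.6 CPM (CRISPRi mock), 63.3 CPM (LV-vector-34) and 62.8 CPM (CRISPRd control) in tables normalised separately. LV-SKA2, at 60.4 CPM, was below all of these controls and close to the CRISPRd control. Whether the authors' counting assigns reads of the introduced construct to SKA2 could not be settled from the files, so the count goes against the label without measuring the introduced copy.

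**Figure D1:**
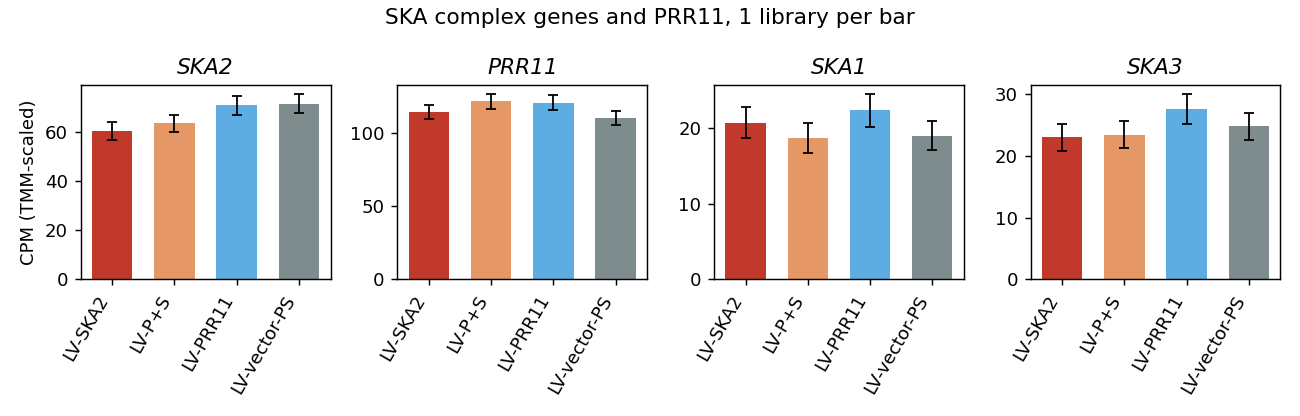
Level in CPM (vertical axis, starting at 0) of SKA2, PRR11, SKA1 and SKA3 in LV-SKA2, LV-P+S, LV-PRR11 and LV-vector-PS, with 1 library per bar; error bars are 1.96 times the square root of the count and cover counting error only. SKA2 stood at 60.4 CPM in LV-SKA2 and 71.6 CPM in LV-vector-PS.

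A model over all 4 libraries, with the SKA2 label and the PRR11 label as additive terms, left 1 residual degree of freedom. The residual is the departure of 4 single libraries from additivity, not a spread between cultures. SKA2 had a log2 coefficient of -0.20 for its own label (SE 0.051; adjusted p = 0.0043, edgeR quasi-likelihood test with Benjamini-Hochberg adjustment). After a correction for transcript GC content, described below, the adjusted p of SKA2 was 0.098 in edgeR.

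SKA1 and SKA3 differed in direction in the first pair and were both lower in the second. SKA1, which carries the microtubule-binding domain of the complex, had 388 counts in LV-SKA2 and 359 counts in LV-vector-PS, a log2 ratio of 0.12 whose interval included equality. SKA3 had 430 counts in LV-SKA2 and 466 counts in LV-vector-PS, a log2 ratio of -0.10 whose interval also included equality. Between LV-P+S and LV-PRR11 both were lower in LV-P+S, by log2 ratios of -0.25 for SKA1 and -0.23 for SKA3, and both intervals excluded equality. The GC-centred values there were -0.22 for SKA1 and -0.20 for SKA3. PRR11, the neighbour across the promoter, had 2142 counts in LV-SKA2 and 2089 counts in LV-vector-PS, a log2 ratio of 0.05. Of 17 measured neighbours around SKA2 on 17q22, 0 were higher and 3 were lower by the counting interval (background 10.3% and 10.6%), with a median log2 ratio of -0.06 and of 0.0042 after GC centring, and RAD51C, a recombination gene, was the largest at 32.4 CPM in LV-SKA2 and 39.9 CPM in LV-vector-PS.

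Across the transcriptome LV-SKA2 and its vector were close. The median absolute log2 ratio was 0.09, and 97.3% of measured genes lay within 0.5 of equality. The size rule called 34 genes (0.252% of those measured), of which 19 were higher (0.141%) and 15 lower (0.111%). The counting interval alone excluded equality for 2804 genes (20.8%), 1381 higher genes (10.3%) and 1423 lower genes (10.6%). The second pair gave 40 calls (0.298%), 22 higher and 18 lower (0.164% and 0.134%), and the interval excluded equality for 2742 genes (20.4%), 1353 higher (10.1%) and 1389 lower (10.3%). Of 26 called genes measured in the second pair, 1 passed the rule there in the same direction, the cytosolic phospholipase PLA2G4B, and 4 in the opposite direction.

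Most of the 34 called genes shared reads with other genes. Expected counts that are not whole mark reads that the authors' counting divided among several genes, and 31 of the 34 had such a count in at least 1 of the 4 libraries, against 54.3% of measured genes. Calls were made for 0.424% of the measured genes with such counts. Of the 34 called genes, 27 lay under 5 CPM in both libraries, whereas 11130 of the 13470 measured genes were at 5 CPM or more in the vector. Among genes with whole counts in all 4 libraries, 3 of 6162 were called (0.0487%), all of them lower.

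NME1-NME2, a readthrough transcript that joins the neighbouring nucleoside diphosphate kinase genes on chromosome 17 (51153590 to 51171744), was the most abundant called gene. It had 523 counts in LV-SKA2, 233 in LV-P+S, 157 in LV-PRR11 and 90 in LV-vector-PS. The ratio of LV-SKA2 to the vector was 5.86 (4.67 to 7.41). NME1 had 3420 counts in LV-SKA2 and 4057 in LV-vector-PS, and NME2 had 10041 counts in LV-SKA2 and 10922 in LV-vector-PS. Summed over the locus, the 3 genes gave 13984 counts in LV-SKA2 and 15069 in LV-vector-PS, a ratio of 0.935. The locus as a whole was therefore slightly lower, and the readthrough entry alone was higher.

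Other readthrough genes were called in both directions. ABHD14A-ACY1 had 100 counts in LV-SKA2 and 0 in LV-vector-PS, at least 33.6-fold higher against a floor of 3 counts per library. CORO7-PAM16 had 31 counts in LV-SKA2 and 0 in LV-vector-PS, at least 10.4-fold higher by the same floor. Of 47 measured readthrough genes 6 were called, 4 higher and 2 lower, against 0.252% of all measured genes (0.141% higher and 0.111% lower). Summed with their components, the 6 loci had log2 ratios between -0.10 and 0.18, and ABHD14A, ACY1 and their readthrough gave 820 counts in LV-SKA2 and 727 in LV-vector-PS, a ratio of 1.14 (1.03 to 1.26).

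Copied and overlapping genes made up most of the rest. SIK1, a salt-inducible kinase, had 16 counts in LV-SKA2 and 71 counts in LV-vector-PS, whereas its copy SIK1B had 9455 counts in LV-SKA2 and 8515 counts in LV-vector-PS. PLA2G4B had 0 counts in LV-SKA2 and LV-P+S, and 30 and 38 counts in LV-PRR11 and LV-vector-PS. The readthrough JMJD7-PLA2G4B that overlaps it had 120 counts in LV-SKA2 and 57 in LV-vector-PS. The sum over PLA2G4B, JMJD7 and the readthrough was 174 counts in LV-SKA2 and 160 in LV-vector-PS. In all, 22 groups of copies, overlapping genes and readthrough loci held 26 of the 34 called genes, and 1 group stayed past 2-fold when summed. It was the pair of complement C4 copies, at 40 counts in LV-SKA2 and 11 in LV-vector-PS, a ratio of 3.66 (1.85 to 7.92). C4B had 30 counts in LV-SKA2 and 0 in LV-vector-PS, and C4A had 10 counts in LV-SKA2 and 11 in LV-vector-PS. Other called genes of the 22 groups included the copies NPIPA3, GOLGA8O, TBC1D3H, TP53TG3C, LOC102723713 and ANKRD20A2, higher, and TBC1D3I, TP53TG3 and NBPF26, lower. Called genes grouped with an overlapping or readthrough gene included GCOM1, HTD2 and SCHIP1, higher, and ZNF177 and CEMP1, lower. KIAA0408, SH3D21 and LOC100996379 were called higher at 43, 40 and 19 counts in LV-SKA2 and 10, 13 and 4 counts in LV-vector-PS, and the other called genes outside these groups were LOC102724951, LOC102724200 and the 3 below. The groups were drawn up after the values had been seen.

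The 3 called genes with whole counts were FOSB, CDH10 and HOXD13. CDH10, a cadherin, had 10 counts in LV-SKA2 and 36 in LV-vector-PS, and a log2 ratio of -1.22. It was lower as well between the other 2 libraries, at 22 counts in LV-P+S and 47 in LV-PRR11 (log2 ratio -0.86). HOXD13, a homeobox factor, had 3 counts in LV-SKA2 and 19 in LV-vector-PS, a ratio of 0.159 (0.0302 to 0.540).

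FOSB encodes a subunit of the AP-1 transcription factor and is an immediate early gene. It lies on chromosome 19 (45467995 to 45475179, plus strand). Its counts were 78 in LV-SKA2, 202 in LV-P+S, 178 in LV-PRR11 and 250 in LV-vector-PS, or 4.17, 10.6, 9.51 and 13.3 CPM. LV-SKA2 was 3.18-fold lower than the vector (2.46 to 4.16), and LV-P+S was at 112% of LV-PRR11 (91.0% to 138%). The difference between the pairs was not tested. Among control libraries, in tables normalised separately, FOSB stood at 13.3 CPM in LV-vector-PS, 117 CPM in the CRISPRi mock, 1.94 CPM in LV-vector-34 and 0.201 CPM in the CRISPRd control. The controls covered a range far wider than the difference between LV-SKA2 and LV-vector-PS, and the part of that variation in the result was not tested. In the additive model described below, FOSB had an adjusted p of 7.8e-05 in edgeR, and of 0.058 with GC offsets. Its log2 ratios were -1.56 in the first pair and 0.15 in the second, so that coefficient averages 2 unlike ratios.

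FOS, EGR1 and JUN were lower in LV-SKA2 by the counting interval. FOS, the founding AP-1 member, had 74.3 CPM in LV-SKA2 and 95.8 CPM in LV-vector-PS, a log2 ratio of -0.36. EGR1, a zinc finger early response factor, had 39.0 CPM in LV-SKA2 and 49.9 CPM in LV-vector-PS, a log2 ratio of -0.35. JUN, the usual AP-1 partner, had 60.2 CPM in LV-SKA2 and 68.2 CPM in LV-vector-PS. In LV-P+S against LV-PRR11 the log2 ratios were -0.06 for FOS, -0.14 for EGR1 and -0.08 for JUN. JUND and JUNB went the other way, JUND at 199 CPM in LV-SKA2 and 173 CPM in LV-vector-PS. Of 28 measured immediate early genes, 3 were higher and 5 lower by the counting interval (background 10.3% and 10.6%), with a median log2 ratio of -0.04, also after GC centring. With GC offsets, EGR1 had an adjusted p of 0.0063 and FOS of 0.012 in edgeR.

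The sequences upstream of FOSB, FOS and EGR1 are shown because these 3 genes were lower together in LV-SKA2. They come from RefSeq on GRCh38.p14 and are 249, 196 and 250 bases long. Those of FOSB and FOS end at the annotated gene start. The EGR1 bases end at 138465478, short of the annotated gene start at 138465490. They lie at chr19:45467746-45467994, chr14:75278578-75278773 and chr5:138465229-138465478, all on the plus strand. Capitals mark TGACG, the core of a cyclic AMP response element, searched on both strands (TGACG or CGTCA).
FOSB: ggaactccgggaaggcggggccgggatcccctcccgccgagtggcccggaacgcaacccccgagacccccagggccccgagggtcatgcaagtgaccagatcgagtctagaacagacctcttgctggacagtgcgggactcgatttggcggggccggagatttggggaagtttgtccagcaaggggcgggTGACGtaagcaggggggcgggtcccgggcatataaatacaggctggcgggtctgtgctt
FOS: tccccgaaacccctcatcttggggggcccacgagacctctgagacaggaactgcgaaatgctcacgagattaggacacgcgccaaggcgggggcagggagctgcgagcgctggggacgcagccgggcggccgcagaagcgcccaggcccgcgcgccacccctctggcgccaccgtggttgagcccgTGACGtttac
EGR1: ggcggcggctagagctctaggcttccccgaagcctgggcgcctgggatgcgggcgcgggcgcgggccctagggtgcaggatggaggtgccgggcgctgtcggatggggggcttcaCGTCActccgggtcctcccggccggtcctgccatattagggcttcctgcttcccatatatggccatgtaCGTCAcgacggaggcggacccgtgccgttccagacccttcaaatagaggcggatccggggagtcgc
FOSB and FOS held 1 match each and EGR1 held 2, against 21.2% of all 35116 promoters with at least 1 in the 250 bases upstream. FOSB, FOS and EGR1 were picked from 5 immediate early genes lower in LV-SKA2 by the counting interval. JUN, also lower, is not shown, so the matches are no test against that share. No binding was measured.

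The ratio of LV-SKA2 to its vector followed transcript GC content. Over 11071 of 11130 genes at 5 CPM or more in the vector, Spearman's rho between GC content and the log2 ratio was 0.478, across genes that share 2 libraries. In the decile of genes with the lowest GC content the median log2 ratio was -0.07, and in the highest decile it was 0.12. The second pair had the same slope at a lower strength, with rho of 0.295 and medians of -0.05 and 0.07. The rho between the ratio and transcript length was -0.0839 in the first pair and 0.108 in the second. GC content moved with the ratio in both pairs, and its part in any single gene's difference was not tested. A GC-centred median is given below beside gene groups, the ratio minus the median of genes of like GC content.

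Part of these small differences recurred. Of 1365 genes higher in LV-SKA2 by the counting interval and measured in both pairs, 474 (34.7%) were higher in LV-P+S too and 44 were lower. The 474 were 35.3% of the genes higher in the second pair. Of 1409 genes lower in LV-SKA2, 493 (35.0%) were lower in LV-P+S and 49 higher, and the 493 were 36.1% of the genes lower in the second pair. The Spearman correlation of the 2 log2 ratios across genes was 0.355, and 0.254 after GC centring. Genes are not independent replicates.

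The additive model gave 772 genes for the SKA2 label at an adjusted p under 0.05 (5.79% of 13334 tested), 446 higher (3.34%) and 326 lower (2.44%), by the edgeR quasi-likelihood test. The differences were small and followed GC content: 84.3% of the higher genes with a GC value, and 14.1% of the lower ones, lay above the median GC content of 48.5%. With GC offsets in the model the count was 278 (2.08%), 174 higher (1.3%) and 104 lower (0.78%). Of these, 232 were called in both models, all in the same direction. The variation of the counts was estimated again in the model with offsets. An adjusted p can therefore rise there where the coefficient does not shrink, and the lower count does not measure GC content alone. DESeq2 with the same design called 45 of the 926 genes to which it gave an adjusted p.

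Most measured genes of a liver and gut type were higher, with 11 of 15 log2 ratios above 0 and 4 below. A549 cells express a liver and intestine like set that includes fibrinogen chains and villin. Of 15 measured members 8 were higher in LV-SKA2 and 0 lower by the counting interval (background 10.3% and 10.6%), with a median log2 ratio of 0.17 against -0.0024 over all measured genes. In LV-P+S against LV-PRR11 10 were higher and 0 lower (background 10.1% and 10.3%), with a median of 0.33, and the 8 were higher in both. Centring by GC content gave medians of 0.23 and 0.36, as the median GC content of the members was 43.4%. The additive model called 7 members higher, and 8 with GC offsets. The summed level of the list was 12904 CPM in LV-SKA2, 12942 in LV-P+S, 12091 in LV-PRR11 and 12352 in LV-vector-PS. This list, like the others, was chosen with earlier results of these data known, so its share beside the background is not a test.

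Villin, the fibrinogen chains and a tetraspan protein show the pattern. TM4SF20, a transmembrane protein of the tetraspanin-like L6 family, had 336 CPM in LV-SKA2, 326 in LV-P+S, 217 in LV-PRR11 and 275 in LV-vector-PS, and a label coefficient of 0.44 (SE 0.037; adjusted p = 2.7e-28, edgeR). With GC offsets its coefficient was 0.49 and its adjusted p was 4.4e-10 in edgeR. VIL1, the microvillus actin bundler villin, had 131 counts in LV-SKA2, 124 in LV-P+S, 75 in LV-PRR11 and 88 in LV-vector-PS. Its coefficient was 0.64 (SE 0.165, adjusted p = 0.0050, edgeR), and 0.68 with GC offsets (adjusted p = 0.015, edgeR). The fibrinogen chains FGB and FGG had 73.1 and 51.9 CPM in LV-SKA2 and 65.1 and 42.3 CPM in LV-vector-PS. Each of these 4 genes was higher in both libraries labelled with SKA2 than in both without it. The SEs and adjusted p-values rest on 1 residual degree of freedom and do not measure a spread between cultures.

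The mucin and goblet cell list gave 4 higher and 0 lower of 13 measured in LV-SKA2 and 7 higher and 0 lower in LV-P+S over LV-PRR11 (background 10.3% and 10.6% in the first pair, 10.1% and 10.3% in the second). MUC5B, a gel-forming airway mucin, had 146 CPM in LV-SKA2, 110 in LV-P+S, 83.9 in LV-PRR11 and 106 in LV-vector-PS. MUC5AC, the other gel-forming airway mucin, had 45.4 CPM in LV-SKA2, 35.7 in LV-P+S, 27.9 in LV-PRR11 and 31.9 in LV-vector-PS. AGR2, a disulfide isomerase needed for mucin folding, had 105 CPM in LV-SKA2 and 89.3 CPM in LV-vector-PS. The list median was 0.18 in LV-SKA2, and 0.08 after GC centring, as its members are mostly above the median GC content of all genes. For the second pair the median was 0.29, and 0.26 after centring. The summed level of the list was 428 CPM in LV-SKA2, 354 in LV-P+S, 293 in LV-PRR11 and 347 in LV-vector-PS. In sum LV-P+S thus lay close to the vector, and LV-PRR11 was the lowest library. Lineage transcription factors of liver and gut, such as HNF4A, had 4 higher and 0 lower of 19 measured (background 10.3% and 10.6%), with a median of 0.12 and of 0.09 after GC centring. HNF4A had 130 CPM in LV-SKA2 and 119 CPM in LV-vector-PS.

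**Figure D2:**
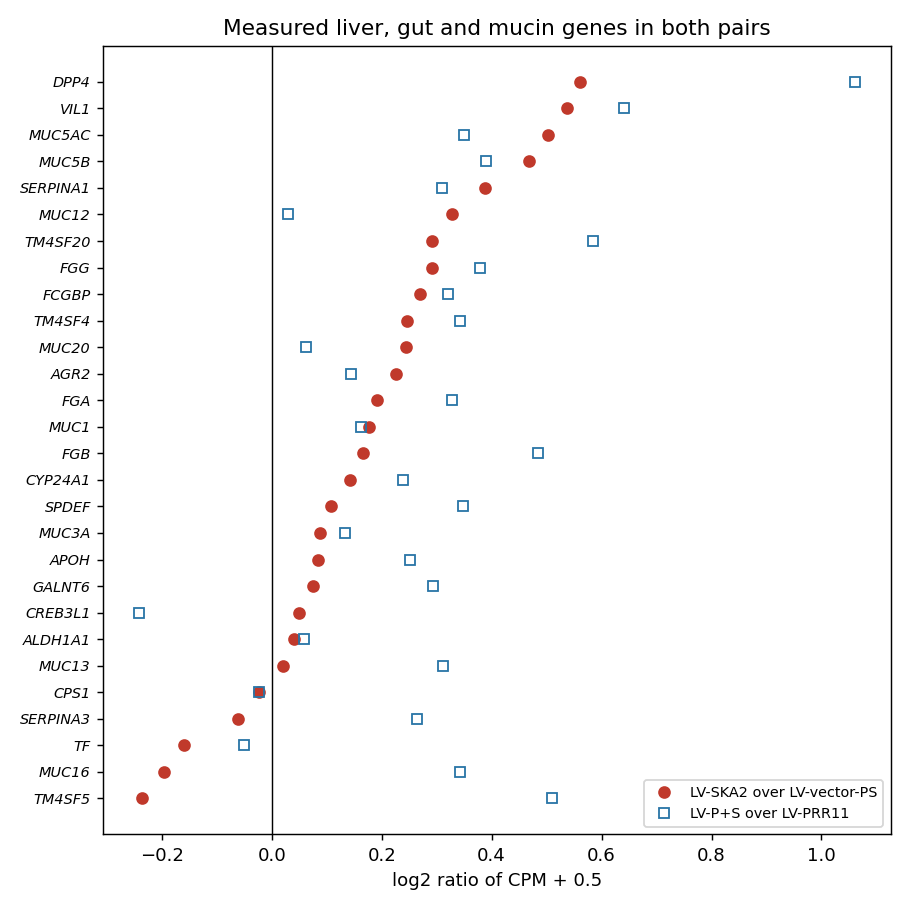
Log2 ratio of CPM + 0.5 (horizontal axis) of the measured liver and gut and mucin genes; filled circles are LV-SKA2 over LV-vector-PS and open squares LV-P+S over LV-PRR11. Most circles and squares lie right of 0, and MUC5B and MUC5AC are among the highest circles at 0.47 and 0.50.

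Mitotic genes were slightly lower. Of 30 kinetochore and spindle checkpoint genes 0 were higher and 10 lower in LV-SKA2 by the counting interval (background 10.3% and 10.6%), with a median log2 ratio of -0.10. Of 30 mitotic entry, spindle and cytokinesis genes 0 were higher and 16 lower, with a median of -0.09. BUB1B, the checkpoint kinase-like protein BUBR1, had 52.6 CPM in LV-SKA2 and 63.1 CPM in LV-vector-PS, and its adjusted p for the SKA2 label was 0.0095 in edgeR, or 0.12 with GC offsets. KIF11, the spindle motor Eg5, had 102 CPM in LV-SKA2 and 114 CPM in LV-vector-PS. These genes are poor in GC, at a median of 41.6% and 43.8%, and GC centring reduced the list medians to -0.04 and -0.05. The additive model called 4 genes of each list lower, and 0 and 2 with GC offsets. In LV-P+S against LV-PRR11 the kinetochore list had 0 higher and 5 lower, and the mitotic list 1 higher and 11 lower (background 10.1% and 10.3%).

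Replication genes gave 1 higher and 11 lower of 32 (background 10.3% and 10.6%), with a median of -0.06 and of -0.05 after centring. MCM10, a replication initiation factor, had 38.7 CPM in LV-SKA2 and 46.2 CPM in LV-vector-PS, and its adjusted p for the SKA2 label was 0.0025 in edgeR. With GC offsets the adjusted p of MCM10 was 0.036 in edgeR. Of 32 genes of the PI3K-AKT core, 4 were higher and 0 lower, with a median of 0.00 and of 0.02 after GC centring, so the share called higher was near the background of 10.3%. IRS2, an insulin receptor substrate, had 147 CPM in LV-SKA2 and 127 CPM in LV-vector-PS.

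Targets of the oxidative stress factor NRF2 gave 12 higher and 5 lower of 28 (background 10.3% and 10.6%), and a median of 0.04, or 0.05 after GC centring. The background is not matched for level, and abundant genes have narrow intervals. On the log2 scale the median half-width of the interval was 0.040 for NRF2 targets and 0.051 for heat shock genes, against 0.161 for kinetochore genes. AKR1C1, an aldo-keto reductase, had a log2 ratio of 0.12 in LV-SKA2 over the vector and 0.20 in the second pair. Heat shock genes gave 2 higher and 7 lower of 13 (background 10.3% and 10.6%), with a median of -0.05 and of -0.06 after GC centring, and HSPA8, a constitutive chaperone, at a log2 ratio of -0.12. LV-P+S against LV-PRR11 gave 2 higher and 6 lower (background 10.1% and 10.3%).

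Individual genes also stood out in the additive model, whose SEs and adjusted p-values do not measure a spread between cultures. RBFOX3, a neuronal splicing factor, had 1215 counts in LV-SKA2, 1308 in LV-P+S, 762 in LV-PRR11 and 936 in LV-vector-PS, and a coefficient of 0.57 (SE 0.055; adjusted p = 1.2e-21, edgeR). CEACAM6, a cell adhesion antigen, was lower, at 58.2 CPM in LV-SKA2, 50.7 in LV-P+S, 73.7 in LV-PRR11 and 71.0 in LV-vector-PS. Its coefficient was -0.41 (SE 0.052, adjusted p = 5.5e-12, edgeR), and -0.38 with GC offsets (adjusted p = 2.0e-05, edgeR). BMI1, a Polycomb group protein, had 18.7 CPM in LV-SKA2, 25.5 in LV-P+S, 30.4 in LV-PRR11 and 30.5 in LV-vector-PS. RBFOX3, CEACAM6 and BMI1 each had a count that is not whole in at least 1 library, as did 54.3% of measured genes. No sum over the genes that share their reads was made. CLDN2, a pore-forming claudin, had 4134 counts in LV-SKA2 and 3411 in LV-vector-PS. All 4 kept an adjusted p under 0.05 with GC offsets. Other genes of largest coefficient were LOC102724951, TMEM189-UBE2V1, BCL2L2-PABPN1, CORO2A, SGK3, CLYBL, CA9, CBWD3 and SH3BP1, higher, and CBWD6, POC1B-GALNT4, ALKBH8, KIAA1586, IL32, ZC3H8, EFEMP1 and NPIPA1, lower. Among them LOC102724951, SH3BP1, ALKBH8, KIAA1586, ZC3H8 and NPIPA1 passed 0.05 in edgeR only without GC offsets. LOC102724951 had log2 ratios of 2.56 in the first pair and -2.03 in the second, so its coefficient joins opposite directions. Summed, TMEM189, UBE2V1 and their readthrough had a ratio of 0.994 in the first pair and 0.970 in the second. BCL2L2, PABPN1 and their readthrough gave 1.02 and 1.01 in the same order, and the NPIPA copies 1.05 and 0.906. The CBWD copies gave 0.897 and 0.923, although CBWD3 was higher and CBWD6 lower.

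The set of A549 cells with the shared promoter repressed by CRISPR interference gave a view of the same genes from libraries that the other pairs do not use. SKA2 had 0.227 CPM in CRISPRi cells and 77.6 CPM in mock cells. Of 15003 genes measured there, 1415 were higher (9.43%) and 896 lower (5.97%) by the size rule. Of 14 liver and gut genes measured there 2 were higher and 7 lower, and VIL1 had 1.59 CPM in CRISPRi cells and 16.6 CPM in mock cells. VIL1 varied among the other controls too, at 4.67 CPM in LV-vector-PS, 6.45 CPM in LV-vector-34 and 1.26 CPM in the CRISPRd control, in tables normalised separately. This range is wider than the difference between LV-SKA2 and its vector, and its part in the result was not tested. The additive model called 446 genes higher, and 438 of them were measured in the CRISPRi set. Of these 438, 37 (8.45%) were higher and 55 (12.6%) lower in CRISPRi cells. Of 326 called lower, 315 were measured there, with 25 higher and 44 lower. Over all genes of the model measured there 7.68% were higher and 6.24% lower. With GC offsets, 16 (9.25%) of 173 label-higher genes measured there were higher and 40 (23.1%) lower. Of 97 label-lower genes measured there 16 (16.5%) were higher and 16 lower. Of the 30 kinetochore and 30 mitotic genes, 26 and 29 were lower in CRISPRi cells and 0 higher.

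Markers of fibroblasts and immune cells stayed low. Of 10 fibroblast markers 6 were measured, with a summed level of 39.2 CPM in LV-SKA2 and 41.2 CPM in LV-vector-PS. Of 10 immune markers 3 were measured, at a sum of 41.1 CPM in LV-SKA2 and 35.2 CPM in LV-vector-PS, mostly from CD68 and CD14. Of 11 HEK293 markers 7 were measured, with higher sums of 120 CPM in LV-SKA2 and 119 CPM in LV-vector-PS.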

How the data were processed

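RNA sequencing libraries of A549 lines were deposited as tables of gene counts. Per the submitters' processing notes, the authors used Bowtie2 2.3.5.1, RSEM 1.3.3 and the GRCh38.p13 build; no source used here names their annotation release. The deposited values are expected counts from RSEM, not normalized, which need not be whole where reads were shared between genes; they were rounded to whole numbers here. Gene symbols turned into dates (25) were restored by gene ID. Library sizes were scaled by TMM (edgeR 4.0.16, R 4.3.3). Genes at 20 or more reads over a pair and 1 CPM or more in either were kept, and ratios used CPM + 0.5. With 1 library per group no replicate test exists; exact Clopper-Pearson 95% intervals cover counting error. The additive model (edgeR quasi-likelihood, Benjamini-Hochberg) used 4 libraries; DESeq2 1.42.0 was an alternative. Transcript GC content came from GENCODE release 29 for 17355 genes. GC content and gene groups of copies were alternatives added after the data were seen. Tested on simulated data, the size rule for LV-SKA2 against LV-vector-PS found 43.0% of 2-fold and 100% of 4-fold changes among 13444 genes. The additive model for the SKA2 label found 100% of 2-fold and of 4-fold changes with 10 false calls among 13230 genes. Its simulation used the coefficient of variation fitted here (0.0231), had no GC trend, and changed only genes at 5 CPM or more. The 10 false calls therefore do not give the error rate of the additive model on these libraries.

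Named genes were SKA2, PRR11, SKA1 and SKA3, every called gene, the 12 higher and 12 lower genes of largest coefficient at 5 CPM or more, and up to 4 members per list that differed alike in both pairs; others are named as examples. The members and lists were chosen with earlier results of these data known. Mitochondrial messages were not analysed here, and a few named genes are not reported here.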

Additional observations from a re-analysis of the deposited data

Results flagged for a closer look

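Named genes whose counting intervals excluded equality in opposite directions in the 2 pairs were looked at again; the difference between the pairs was not tested, and each pair is 2 single libraries. HTD2, a mitochondrial fatty acid dehydratase, had 1.02 in LV-SKA2 against LV-vector-PS and -0.57 in LV-P+S against LV-PRR11. In the same order of pairs, SCHIP1 had log2 ratios of 1.08 and -0.85. LOC388436 had -2.36 and 3.08, and LOC79999, which was grouped with it, had 1.04 and -2.37. LOC102724200 had -1.50 and 1.18, and LOC102724951 had 2.56 and -2.03. CEMP1, which overlaps AMDHD2, had -1.10 and 0.80.

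LOC388436 had 0 counts in LV-SKA2, 71 in LV-P+S, 0 in LV-PRR11 and 39 in LV-vector-PS. LOC79999 had 67 in LV-SKA2, 0 in LV-P+S, 39 in LV-PRR11 and 28 in LV-vector-PS. Summed, the 2 gave 67 counts in LV-SKA2 and 67 in LV-vector-PS. All 7 genes had a count that is not whole in at least 1 library.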

How the results depend on the processing

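No paired analysis was possible because each group is 1 library and no replicate numbers are shared; the additive model matches libraries by the PRR11 label, not by replicate. The 34 calls in LV-SKA2 against LV-vector-PS were 57 with no filter beyond 1 read, 7 at 5 CPM or more, 80 with a pseudocount of 0.1, 8 with a pseudocount of 2, 186 at a 1.5-fold threshold, 3 over genes with whole counts and 9 with copied and readthrough genes summed, of which the last 2 were added after the data were seen. The 40 calls in LV-P+S against LV-PRR11 were 3 at 5 CPM or more, 79 and 12 with pseudocounts of 0.1 and 2, 204 at 1.5-fold and 2 over genes with whole counts. For the SKA2 label, 772 genes in edgeR were 45 in DESeq2 and 278 with GC offsets, an alternative added after the data were seen. Centring by GC content moved the median of the epithelial keratin list to -0.029, against 0.07, and that of the A549 identity markers to 0.039, against 0.08. In LV-P+S against LV-PRR11 HTD2 was at -0.57, SCHIP1 at -0.85, LOC388436 at 3.08, LOC102724200 at 1.18, CEMP1 at 0.80, LOC102724951 at -2.03 and LOC79999 at -2.37 on the log2 scale. The cause was not tested for any of these except where the alternative keeps fewer genes. Counts of genes under 5 CPM limit what can be called at this depth.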

Other observations

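Over all measured genes, the counting interval of LV-SKA2 against LV-vector-PS called 10.3% higher and 10.6% lower. These shares are not matched for level. The median half-width of the interval was 0.036 on the log2 scale for ribosomal protein genes and 0.017 for A549 identity markers, so small ratios passed there. Of 13 measured epithelial keratin and cadherin genes 7 were higher and 0 lower, with a median log2 ratio of 0.07 and of -0.03 after GC centring. Of 12 A549 identity markers 9 were higher and 1 lower, with a median of 0.08 and of 0.04 after centring. Of 19 TGF-beta genes 6 were higher and 1 lower, with a median of 0.06 and of 0.02 after centring. Of 26 p53 targets 3 were higher and 2 lower, with a median of 0.01 and of -0.0015 after centring, and of 25 interferon response genes 2 were higher and 3 lower, with a median of -0.05 before and after centring. Ribosomal protein genes split into 11 higher and 11 lower of 37, with medians of 0.0018 and 0.0044. Of 18 measured mesenchymal genes 2 were higher and 3 lower, with medians of -0.02 before and after centring.

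Among genes at 5 CPM or more in the model with GC offsets, 3 were picked after their values had been seen. USH1C, the microvillus scaffold harmonin, had 34.2 CPM in LV-SKA2, 31.4 in LV-P+S, 21.1 in LV-PRR11 and 27.6 in LV-vector-PS, and an adjusted p of 0.00048 in edgeR. IGFBP1, a liver-secreted binding protein of insulin-like growth factors, had log2 ratios of 0.51 in LV-SKA2 over LV-vector-PS and 0.41 in LV-P+S over LV-PRR11, with an adjusted p of 3.4e-05 in edgeR. STC2, a secreted stanniocalcin, had 24.1 CPM in LV-SKA2, 24.1 in LV-P+S, 30.8 in LV-PRR11 and 27.5 in LV-vector-PS, with an adjusted p of 0.030 in edgeR. USH1C had a log2 ratio of -0.91 in CRISPRi against mock cells, IGFBP1 of 1.34 and STC2 of 1.34.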
